A study of Mus musculus with 180 samples.

Results

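A group of 10 genes of the E2f family and of S-phase entry was read in single cells: E2f1, E2f2, E2f3, E2f4, E2f7 and E2f8, the cyclin genes Ccne1, Ccne2 and Ccna2, and the kinase gene Cdk2. They were chosen by name, and all 10 were found among the 14825 genes of the table. A filter on low values, which kept a gene if 10% or more of the cells of any population had it at a TPM of 1, left 9 of the 10 and 10856 genes in all. E2f2 did not pass it. TPM, the share of a cell's transcripts that a gene takes, is a level per length of transcript that sums to the same total in every cell, so levels of different genes can be set side by side. A cell was counted as having a gene at a TPM of 1 or more.

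The study asked what enforced Hoxb5 does in multipotent progenitors (MPP), and 180 of its single cells, of 4 populations on the C57BL/6 background, were analysed here. The 47 CD11b+CD48+SK cells, labelled CD48+Mac1+SK, were donor-derived Sca1+c-kit+ cells of primary recipients at Week 8 after transplantation. Their donors were Mx1cre/RosaLSL-Hoxb5-EGFP/+ mice, in which pIpC induces Cre from the Mx1 promoter and Cre then releases Hoxb5 with EGFP, and the MPP had gone with Sca1- helper cells into lethally irradiated CD45.1+ hosts given pIpC. The other cells came from RosaLSL-Hoxb5-EGFP/+ mice, named Hoxb5LSL/+ in the labels, which carry the silent cassette without Cre: 41 WT-MPP and 36 haematopoietic stem cells of bone marrow (BM HSC), both at 8 weeks of age, and 56 fetal liver stem cells (FL HSC) at Day14.5, sorted from Lin-Sca1+c-Kit+ cells of CD45.2 type for Mac1 and CD150. The paper defined MPP as CD48- cells without lineage markers, CD11b among these, whereas the CD11b+CD48+SK cells were sorted for both. Transplantation, the irradiated host, pIpC, Hoxb5 and this sort gate differed together between CD11b+CD48+SK and WT-MPP cells and cannot be told apart. The labels do not tie cells to animals. Each population was therefore 1 sample whose cells are not replicates, no p-value is given between populations, and overlap or separation of intervals is no test.

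E2F proteins are transcription factors, most of which bind DNA with a DP partner, and the activators among them switch on the genes of DNA replication. In resting cells the pocket proteins Rb, p107 and p130 hold them in check, and phosphorylation of these by cyclin D and then cyclin E with its kinase sets the activators free. Cyclin E with Cdk2 starts replication, cyclin A with Cdk2 carries it on, and the atypical repressors E2F7 and E2F8, themselves E2F targets, close the wave again. Most adult stem cells of the marrow rest outside the cycle, while those of the fetal liver divide.

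The number of genes detected stood in for depth, which TPM does not keep. Its median was 4514 per CD11b+CD48+SK cell, 5206.5 per FL HSC, 4441.5 per BM HSC and 3844 per WT-MPP cell. Of 6 sort markers only Cd48, Itgam and Slamf1 are given here, each in some populations, and these followed the labels in part. Cd48 was present in 47 of 47 CD11b+CD48+SK cells, but Itgam, the gene of CD11b, in 17 of 47, and Slamf1, the gene of CD150, in 31 of 56 FL HSC and 23 of 36 BM HSC. The summed level of 6 erythroid markers of a list of 10 had a median of 2406 TPM in FL HSC (104 to 11606, none of the 6 at 0 in every cell) and of 39.5 TPM or less elsewhere, with Epor at 0 in all CD11b+CD48+SK cells. Mast cell and basophil markers, 5 of 8 in the table, had a median sum of 144 TPM in CD11b+CD48+SK cells (0 to 9249, Cma1 at 0 throughout) and of 0.215 TPM or less elsewhere. Of the neutrophil and monocyte markers, 8 of 10 in the table, Lyz2 was found in 100% of the cells of every population. Of the 8, 4 were at 0 in all CD11b+CD48+SK cells, 3 in all FL HSC, 5 in all BM HSC and 7 in all WT-MPP. The part of these other transcripts in the results below was not tested.

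The promoters are shown first, because 7 of the 10 genes have an entry in the RefSeq set for GRCm38.p6 (E2f4, Ccne2 and Ccna2 do not) and E2F factors are known to act on the promoters of this family. Each window of 300 bases, 250 before the start of transcription and 50 after it, was searched on both strands for TTTCCCGC, TTTCGCGC, TTTGCCGC and TTTGGCGC, spellings of the E2F site. At least 1 of them was found in 2.26% of all 32851 windows and in 4 of the 9 windows of the 7 genes. These 4 windows were of E2f2, E2f3, E2f7 and Cdk2. In E2f2 the match lies past the start of transcription of its RefSeq entry and is not printed. That window, chr4:136172024-136172323, ends before the E2f2 gene start of chr4:136172394 given below, which is from GENCODE. The E2f1 window had no match, but its upstream bases, chr2:154569427-154569676, lie inside the E2f1 gene as GENCODE places it. The bases before the GENCODE start of E2f1 (chr2:154569892) were thus not searched. The 250 bases before the start are given for E2f3, E2f7 and Cdk2, and for Ccne1 and E2f8, which had no match and were listed at 0 in both adult control populations. They are written 5′ to 3′ on the strand of the gene, with the match in capitals, which read GCGGGAAA because all 3 lie on the opposite strand:
E2f7, chr10:110745189-110745438, plus strand: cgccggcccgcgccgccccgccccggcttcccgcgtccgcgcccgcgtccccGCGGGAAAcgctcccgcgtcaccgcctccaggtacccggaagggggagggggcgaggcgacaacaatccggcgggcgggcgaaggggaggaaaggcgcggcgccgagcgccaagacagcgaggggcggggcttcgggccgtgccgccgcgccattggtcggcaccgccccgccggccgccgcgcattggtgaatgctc
Cdk2, chr10:128705052-128705301, minus strand: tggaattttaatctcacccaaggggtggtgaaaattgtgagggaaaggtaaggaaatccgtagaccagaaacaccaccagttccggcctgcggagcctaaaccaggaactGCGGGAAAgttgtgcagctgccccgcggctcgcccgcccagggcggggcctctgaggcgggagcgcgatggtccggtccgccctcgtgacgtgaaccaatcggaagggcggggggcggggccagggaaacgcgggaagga
E2f3, chr13:29986064-29986313, minus strand: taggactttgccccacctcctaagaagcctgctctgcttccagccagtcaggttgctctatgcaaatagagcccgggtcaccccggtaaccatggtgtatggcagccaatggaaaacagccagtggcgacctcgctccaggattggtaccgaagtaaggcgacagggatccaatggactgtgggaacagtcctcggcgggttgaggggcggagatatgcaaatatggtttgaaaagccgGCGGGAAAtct
Ccne1, chr7:38107491-38107740, minus strand: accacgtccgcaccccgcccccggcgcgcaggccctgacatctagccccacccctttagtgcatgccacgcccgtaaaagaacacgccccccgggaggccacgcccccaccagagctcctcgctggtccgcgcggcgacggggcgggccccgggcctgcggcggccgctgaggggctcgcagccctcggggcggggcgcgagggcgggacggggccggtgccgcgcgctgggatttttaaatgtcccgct
E2f8, chr7:48881597-48881846, minus strand: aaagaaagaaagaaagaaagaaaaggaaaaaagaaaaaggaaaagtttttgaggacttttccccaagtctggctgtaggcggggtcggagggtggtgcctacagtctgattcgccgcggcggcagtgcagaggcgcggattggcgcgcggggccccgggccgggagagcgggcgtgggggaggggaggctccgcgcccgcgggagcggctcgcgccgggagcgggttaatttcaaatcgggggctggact

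The matches began 198 bases before the start in E2f7, 140 in Cdk2 and 11 in E2f3. The CHR word TTTGAA, a site of late cell cycle genes, was found in 17.9% of all windows and in E2f2, E2f3 and E2f8, in E2f3 at 23 bases before the start. Genes with an E2F match thus included Cdk2, found in most cells of every population, and E2f7, found in no WT-MPP cell at a TPM of 1. A match is only a stretch of letters, and its absence concerns these letters and this window alone.

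Among the activators, E2f1 was the most frequent, and WT-MPP cells stood apart from the other populations. E2f1 (chr2:154559407-154569892, minus strand, GRCm38 as all gene positions here) encodes the activator best known for driving S-phase genes. It was present in 19 of 47 CD11b+CD48+SK cells (40.4%, exact 95% Clopper-Pearson interval 26.4 to 55.7%, which like all such intervals here covers the counting of cells only). Levels ran from 0 over a median of 0 to 233 TPM. In FL HSC it was present in 25 of 56 cells (44.6%, 31.3 to 58.5%), from 0 over a median of 0.300 to 257 TPM. In BM HSC it was present in 13 of 36 (36.1%, 20.8 to 53.8%), with a median of 0 and a maximum of 266 TPM, and these 3 shares overlap within their intervals. In WT-MPP only 3 of 41 cells had it (7.32%, 1.54 to 19.9%), at 1.28, 17.8 and 107 TPM, a share whose interval lies below the others. Where E2f1 was present, its median level was 69.9 TPM in the CD11b+CD48+SK population, against 75.5 in FL HSC and 96.7 in BM HSC.

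E2f3 and E2f2, the other activators, were sparser and lower. E2f3 (chr13:29906575-29986063, minus strand) was present in 18 of 56 FL HSC (32.1%, 20.3 to 45.96%), 11 of 47 CD11b+CD48+SK cells (23.4%, 12.3 to 38.03%), 4 of 36 BM HSC (11.1%, 3.11 to 26.1%) and only 2 of 41 WT-MPP cells (4.88%, 0.596 to 16.5%). Neighbours in this order overlap, and only the outermost, FL HSC and WT-MPP, do not. The median level of cells with E2f3 was 5.98 TPM in FL HSC and 8.17 in CD11b+CD48+SK cells, against a highest value of 86.0 TPM over all cells. E2f2 (chr4:136172394-136196057, plus strand) was found in 4 CD11b+CD48+SK cells, 5 FL HSC, 1 BM HSC and none of the 41 WT-MPP cells, where the limit of 3 cells is 7.32%. No cell had more than 22.2 TPM of it. E2f3 was also present in 5 of the 5 FL HSC with E2f2, but in 0 of the 4 CD11b+CD48+SK cells and 0 of the 1 BM HSC with it.

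E2f4, the family member that with p130 and p107 represses cell cycle genes in resting cells, was common everywhere. It (chr8:105297663-105305370, plus strand) was present in 85.1% of CD11b+CD48+SK cells, 82.1% of FL HSC, 77.8% of BM HSC and 75.6% of WT-MPP, and all 4 intervals overlap. Mean levels were close, 119, 136, 140 and 109 TPM in that order, but the medians were not: 113, 119 and 110 TPM against 7.77 TPM in WT-MPP. Low values set them apart: E2f4 was between a TPM of 1 and 10 in 11 of 41 WT-MPP cells and 6 of 36 BM HSC, in 3 of 47 CD11b+CD48+SK cells and in no FL HSC. At 10 TPM or more it was found in 78.7% of CD11b+CD48+SK cells (64.3 to 89.3%) and 48.8% of WT-MPP (32.9 to 64.9%), which overlap only narrowly.

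The atypical repressors were the rarest genes of the group after E2f2, and nearly all cells that had them were of the transplanted or the fetal population. E2f7 (chr10:110745439-110787384, plus strand) was present in 10 of 47 CD11b+CD48+SK cells (21.3%, 10.7 to 35.7%), from 2.07 to 36.3 TPM in these cells. In FL HSC 4 of 56 had it (7.14%, 1.98 to 17.3%), between 11.8 and 40.96 TPM, and in BM HSC 1 of 36, at 42.2 TPM. No WT-MPP cell reached a TPM of 1 for E2f7 (up to 7.32% of cells may have it), and 1 was listed at 0.517. These shares overlap between the transplanted cells and FL HSC. E2f8 (chr7:48866429-48881596, minus strand) was present in 9 of 47 CD11b+CD48+SK cells (19.1%, 9.15 to 33.3%), up to 118 TPM, and in 7 of 56 FL HSC (12.5%, 5.18 to 24.1%), up to 50.1 TPM. In every BM HSC and WT-MPP cell E2f8 was listed at 0, with limits of 8.33% and 7.32%. Exons of E2f7 and E2f8 share 86 and 610 bases with an antisense transcript each, and how strand was counted is not given in the sources used here.

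**Figure D1:**
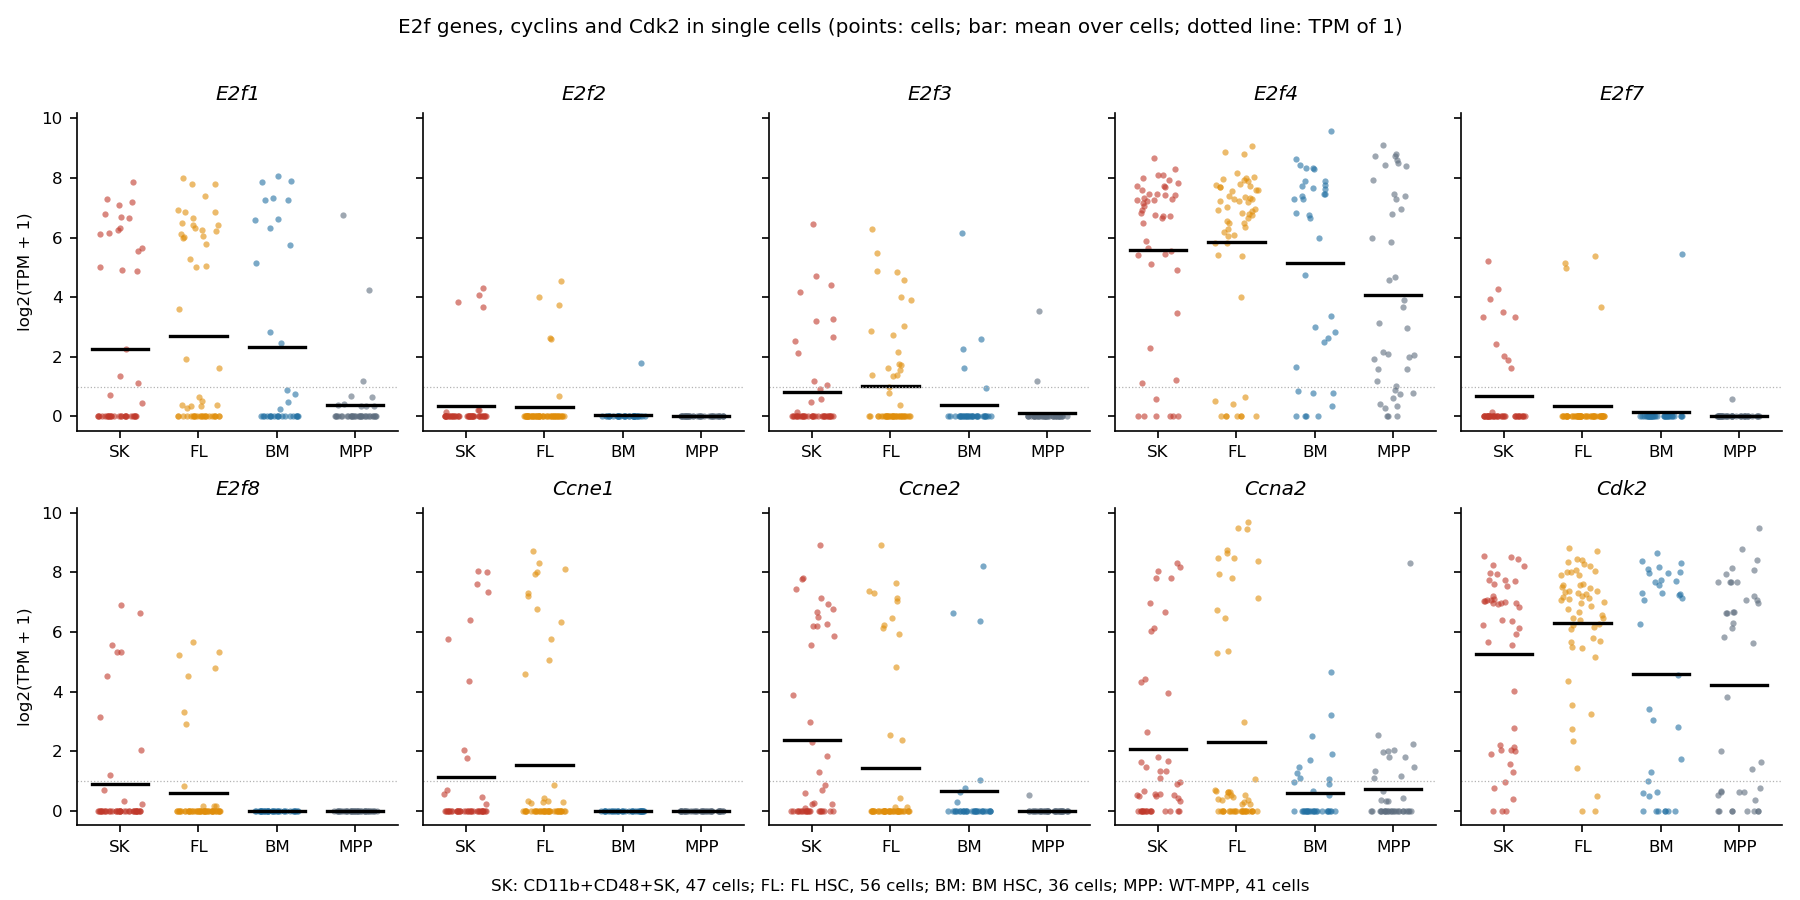
Levels of the 10 genes as log2(TPM + 1) in each of the 180 cells, with a bar at the mean over cells and a dotted line at a TPM of 1. E2f4 and Cdk2 fill every population, E2f1 reaches 233 to 266 TPM in 3 populations and is found in 3 of 41 WT-MPP cells, and E2f8 and Ccne1 lie at 0 in all BM HSC and WT-MPP cells.

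Among the cyclins, Ccne1 was met in no adult control cell. This cyclin E gene (chr7:38097984-38107534, minus strand) was present in 9 of 47 CD11b+CD48+SK cells (19.1%, 9.15 to 33.3%), with a median of 84.5 and a maximum of 264 TPM where present. In FL HSC it was present in 12 of 56 (21.4%, 11.6 to 34.4%), with a median of 153 and a maximum of 417 TPM. In each of the 36 BM HSC and 41 WT-MPP cells Ccne1 was listed at 0, without even a value below 1, and the limits are again 8.33% and 7.32%. The shares of the transplanted and the fetal cells overlap, and most of their Ccne1 values were far above the limit of detection.

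Ccne2 (chr4:11191351-11204779, plus strand), the other cyclin E gene, was most frequent in the transplanted cells. It was present in 19 of 47 CD11b+CD48+SK cells (40.4%, 26.4 to 55.7%), 13 of 56 FL HSC (23.2%, 12.98 to 36.4%) and 4 of 36 BM HSC (11.1%, 3.11 to 26.1%). No WT-MPP cell reached a TPM of 1, and the highest value there was 0.462. The interval of CD11b+CD48+SK cells overlaps that of FL HSC and lies above those of BM HSC and WT-MPP. Levels where present were alike, with medians of 76.0, 87.2 and 90.0 TPM and maxima of 484, 483 and 299 TPM, so the populations were set apart by how many cells had Ccne2. Exons of Ccne2 share 609 bases with Ints8 on the other strand. Ints8 was found in 8 of the 15 CD11b+CD48+SK cells with Ccne2 at 10 TPM or more and in 7 of the 28 below 1 TPM. In FL HSC the order was the other way, with 5 of 11 and 24 of 43, and 13 of the 41 WT-MPP cells, none with Ccne2 at a TPM of 1, had Ints8.

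Ccna2 (chr3:36564865-36572150, minus strand), the cyclin of S phase and G2, showed that presence and level can differ. At a TPM of 1 the CD11b+CD48+SK cells had it in 42.6% (28.3 to 57.8%), FL HSC in 30.4% (18.8 to 44.1%), WT-MPP in 29.3% (16.1 to 45.5%) and BM HSC in 25% (12.1 to 42.2%), all overlapping. At 10 TPM or more they were 12 of 47 (25.5%, 13.9 to 40.3%), 15 of 56 (26.8%, 15.8 to 40.3%), 1 of 41 (2.44%, 0.0617 to 12.9%) and 1 of 36 (2.78%, 0.0703 to 14.53%). The CD11b+CD48+SK interval at that level lies above that of WT-MPP, and the FL HSC interval above those of both adult controls. The median level where present was 247 TPM in FL HSC and 19.8 in CD11b+CD48+SK cells, but 2.75 in WT-MPP and 2.29 in BM HSC, and the maxima were 826, 315, 318 and 24.4 TPM.

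The low values of Ccna2 went with Exosc9, an exosome subunit gene whose exons share 510 bases with Ccna2 on the other strand. Exosc9 was present in 10 of 11 WT-MPP cells and 7 of 8 BM HSC with Ccna2 between 1 and 10 TPM, at medians of 220 and 182 TPM, and in 9 of 29 and 7 of 27 cells with Ccna2 below 1. Among the transplanted cells the counts were 7 of 8 and 11 of 27, and among FL HSC 2 of 2 and 23 of 39. At 10 TPM or more of Ccna2, Exosc9 was present in 8 of 12 CD11b+CD48+SK cells and 11 of 15 FL HSC. It was at 246 TPM in the 1 BM HSC with that much Ccna2, and at 0.0887 TPM in the WT-MPP cell with 318 TPM of Ccna2. Reads of a gene and its antisense neighbour cannot be told apart without strand, and the part of Exosc9 in the low Ccna2 values was not tested.

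**Figure D2:**
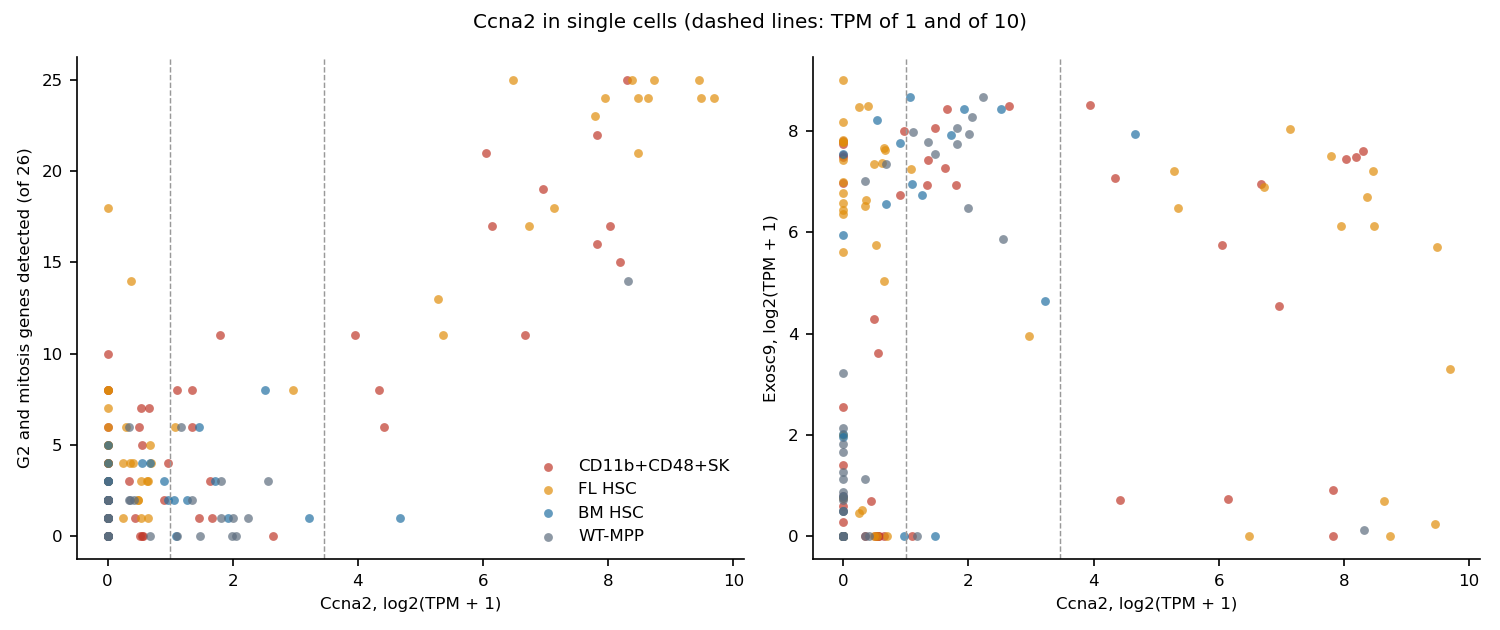
Ccna2 as log2(TPM + 1) in each cell against the number of G2 and mitosis genes detected of a list of 26 (left) and against Exosc9 as log2(TPM + 1) (right), with dashed lines at a Ccna2 TPM of 1 and 10. Most cells right of the second line have 11 or more G2 and mitosis genes, and of the cells between the lines Exosc9 is present in 10 of 11 WT-MPP, 7 of 8 BM HSC, 7 of 8 CD11b+CD48+SK cells and 2 of 2 FL HSC.

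Cdk2 (chr10:128697939-128705031, minus strand), the kinase partner of cyclins E and A, was like E2f4 present in most cells of every population, 146 of 180 against 145. It was present in 94.6% of FL HSC (85.1 to 98.9%) and 87.2% of CD11b+CD48+SK cells (74.3 to 95.2%), and less often in BM HSC (72.2%, 54.8 to 85.8%) and WT-MPP (63.4%, 46.9 to 77.9%). Neighbours in this order overlap, and FL HSC lie above WT-MPP. Mean levels were 143, 112, 117 and 105.5 TPM and medians 131, 113, 104 and 56.5 TPM, with 0 as the lowest value in each population and 717 TPM in a WT-MPP cell as the highest. The means of the populations thus lay closer together than the medians, of which that of WT-MPP was the lowest.

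**Figure D3:**
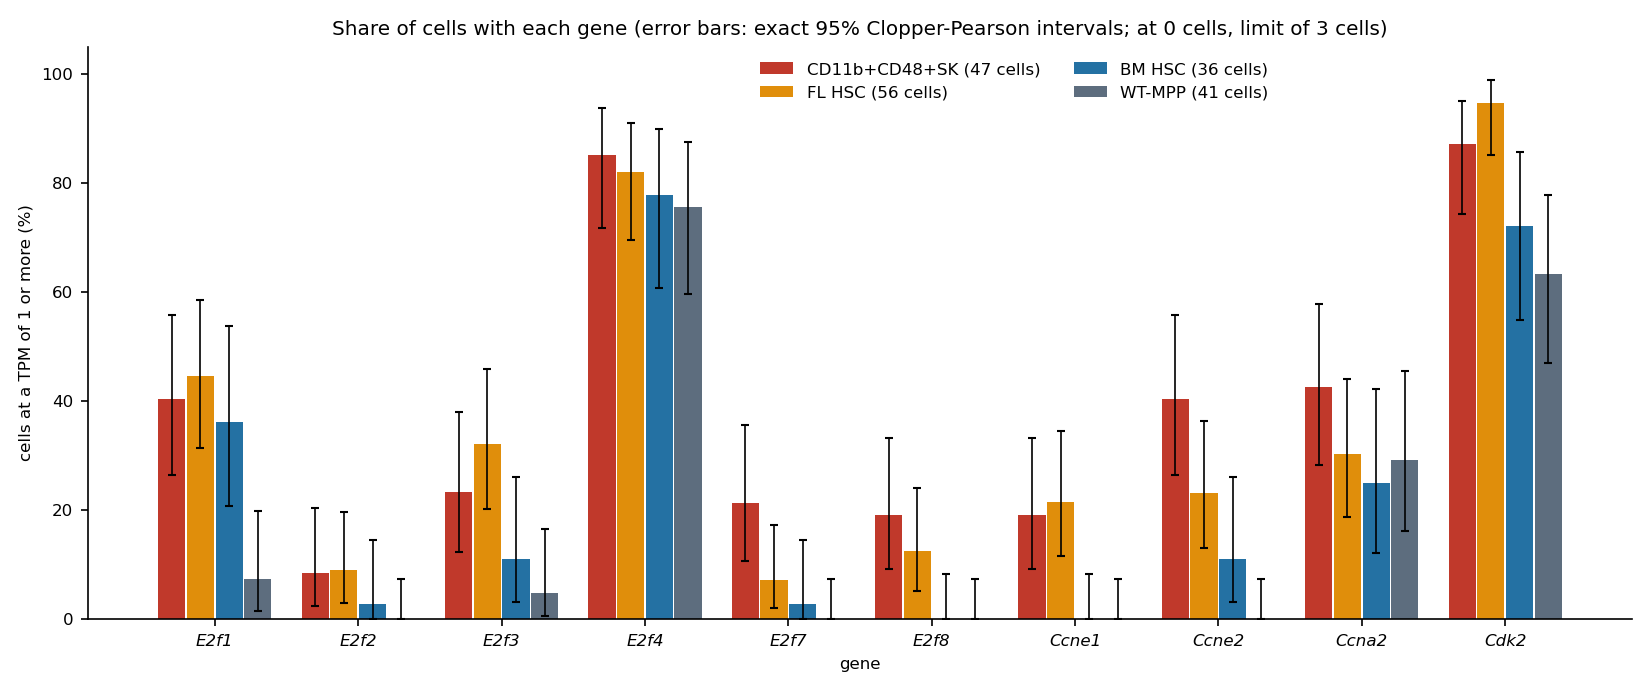
Percent of the cells of each population in which each gene is present, with exact 95% Clopper-Pearson intervals, or the limit of 3 cells where no cell had the gene. E2f4 and Cdk2 stand at 63.4% or more in every population, and the other genes are below 50%, with WT-MPP at 7.32% for E2f1 and at 0 for E2f2, E2f7, E2f8, Ccne1 and Ccne2.

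Means over cells of log2(TPM + 1) were compared next, and a difference of 1 or more was counted. The pseudocount of 1 makes the differences of low genes smaller, and every comparison shares its populations with others. Between CD11b+CD48+SK and WT-MPP cells 6 of the 10 genes were higher by 1 or more and none lower, where 19.01% of all filtered genes were higher and 5.01% lower. They were Ccne2 (2.36, with means of 2.37 ± 3.10 and 0.01 ± 0.09, SD over cells), E2f1 (1.89), E2f4 (1.48), Ccna2 (1.36), Ccne1 (1.14) and Cdk2 (1.02). The 4 others were higher by less, E2f8 by 0.89, E2f3 by 0.69, E2f7 by 0.66 and E2f2 by 0.35, and the median over the 10 was 1.08, against 0.03 over all 14825 genes. With cells rescaled so that the typical expressed gene had the same level in each, the median of the filtered genes went from 0.21 to -0.07, and 9.79% were then higher and 12.2% lower. Relative to those medians E2f1 stayed at 1.68 and 1.78, whereas E2f4 went from 1.27 to 0.91 and Cdk2 from 0.81 to 0.42. After the scaling 4 genes of the group passed 1, without E2f4 (0.84) and Cdk2 (0.36), and with the log of the mean TPM these were at 0.13 and 0.08. In the cells with 4000 to 5500 genes detected, 31 and 17 of them, Ccne1 (0.75), Cdk2 (0.72) and E2f4 (0.22) were below 1 and E2f8 (1.04) was above it.

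Against BM HSC the 3 cyclin genes passed 1 in the CD11b+CD48+SK cells. Ccne2 was higher by 1.70, Ccna2 by 1.48 and Ccne1 by 1.14, where 13.38% of filtered genes were higher and 11.79% lower (8.77% and 15.99% after the scaling). E2f1 was at -0.07 and E2f3 at 0.43, and in cells with 4000 to 5500 genes Ccne1 was at 0.75 and E2f8 at 1.04. Against FL HSC 1 gene passed, Cdk2, at -1.06 (4.02% of genes higher, 20.94% lower), and it was at -0.80 after the scaling and at -0.59 in cells with 4000 to 5500 genes. In those cells Ccne2 was higher by 1.72 in the CD11b+CD48+SK cells. The cyclins lay on either side of 0 in that comparison, Ccne2 at 0.93, Ccna2 at -0.22 and Ccne1 at -0.42.

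FL HSC against WT-MPP gave 6 genes higher by 1 or more, E2f1 (2.34), Cdk2 (2.09), E2f4 (1.77), Ccna2 (1.58), Ccne1 (1.55) and Ccne2 (1.43), where 33.89% of genes were higher and 3.08% lower (19.1% and 9.31% after the scaling). In the cells with 4000 to 5500 genes, for which the share of all genes was not computed, 2 of these still passed, E2f1 at 1.83 and Cdk2 at 1.31. FL HSC against BM HSC gave Cdk2 (1.72), Ccna2 (1.70) and Ccne1 (1.55), with 25.56% of genes higher and 5.44% lower (15.4% and 10.05%), and in those cells Cdk2 alone at 1.03. BM HSC against WT-MPP gave E2f1 (1.95) and E2f4 (1.05), with 14.49% higher and 2.67% lower (11.3% and 5.55%). All 3 cyclins were between -0.12 and 0.65 there. With the log of the mean TPM E2f4 was at 0.36. Ccne2 was then at 3.83, with 3 BM HSC at 50 TPM or more. Ccna2 was at -1.98, where 1 WT-MPP cell had 318 TPM and all others less than 10.

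Counted per cell, several genes of the group were often together in the transplanted cells and in FL HSC. The median number of the 10 genes present was 3 for CD11b+CD48+SK cells (1 to 9), 3 for FL HSC (0 to 9), 2 in BM HSC (0 to 5) and 2 in WT-MPP (0 to 4). The populations overlap throughout the low counts and separate at the top. At least 5 genes were present in 14 of 47 CD11b+CD48+SK cells (29.8%, 17.3 to 44.9%) and 15 of 56 FL HSC (26.8%, 15.8 to 40.3%), against 2 of 36 BM HSC (5.56%) and no WT-MPP cell. In 27 of 41 WT-MPP cells (65.9%, 49.4 to 79.9%) none of the 8 genes besides E2f4 and Cdk2 was present, as in 14 of 47 CD11b+CD48+SK cells (29.8%), 18 of 56 FL HSC (32.1%) and 14 of 36 BM HSC (38.9%). In 4 CD11b+CD48+SK cells and 1 FL HSC every gene but E2f2 was present, and these 5 cells had 32 to 35 of 36 S-phase genes.

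These numbers moved with the number of genes detected. Over cells of a population, Spearman's rho between the 2 counts was 0.687 among CD11b+CD48+SK cells, 0.681 among FL HSC, 0.760 among BM HSC and 0.400 among WT-MPP. Among cells with 4000 to 5500 genes detected, 5 or more of the group were present in 10 of 31 CD11b+CD48+SK cells, 4 of 38 FL HSC, and no BM HSC of 23 or WT-MPP of 17. The medians there were 3, 2, 3 and 2, and within this range the upper tail of the FL HSC was smaller than that of the CD11b+CD48+SK cells. The range leaves out cells with more than 5500 genes. Of the 15 FL HSC with 5 or more of the group, all those outside the range lay above it, as did those of the 14 CD11b+CD48+SK cells. Inside the range Ccne2 was present in 38.7% of CD11b+CD48+SK cells and 10.5% of FL HSC, and E2f7 in 19.4% and 2.63%. These shares concern the cells of the range alone. With the erythroid sum the number of genes of the group had a rho of 0.144 in FL HSC and 0.072 in CD11b+CD48+SK cells, and with Hoxb5 one of -0.297 in CD11b+CD48+SK cells, with -0.051 to 0.216 elsewhere. No test was made of these values.

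**Figure D4:**
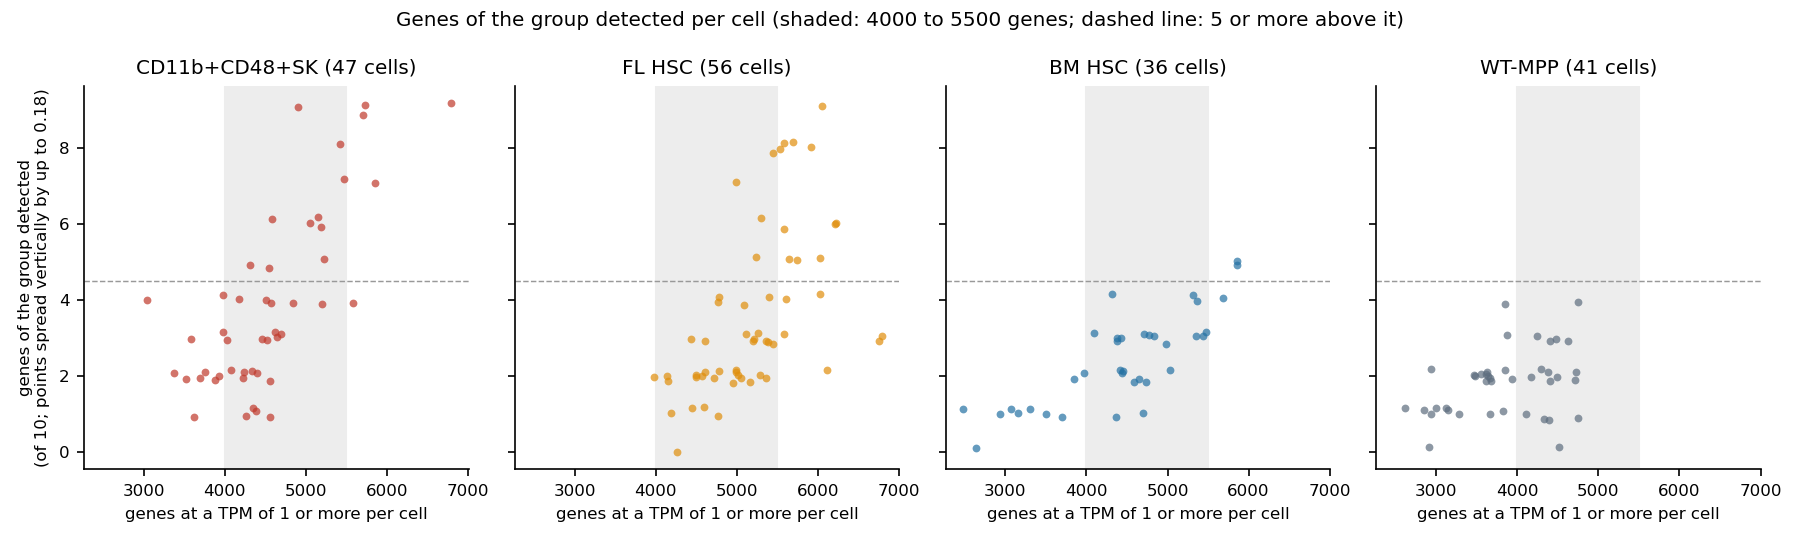
Number of the 10 genes present in each cell against all genes detected in that cell, 1 panel per population, with 4000 to 5500 genes shaded and a dashed line below 5. Above the line lie 14 CD11b+CD48+SK cells, 10 of them in the shaded range, 15 FL HSC, 4 of them in that range, 2 BM HSC and no WT-MPP cell.

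The genes went with the S-phase list, 36 E2F targets of DNA replication such as the Mcm helicase genes, none of them a member of the group. In CD11b+CD48+SK cells the median number of these genes was 30 in cells with E2f1 and 16.5 in cells without, 30 against 18 for Ccne2, 30.5 against 15 for Ccna2, 33 against 19 for Ccne1 and 32.5 against 19 for E2f7. For E2f4 it was 22 against 15, and for Cdk2 21 against 23, so these medians differed less for the genes present in most cells. FL HSC gave 33 against 18 for Ccne2 and 24 against 18 for E2f1. In BM HSC the 4 cells with Ccne2 had a median of 29 against 11.5, whereas Ccna2, nearly all of it below 10 TPM there, gave 12 against 12. Over cells the number of genes of the group had a rho with the S-phase number of 0.767 among CD11b+CD48+SK cells, 0.784 among FL HSC, 0.677 among BM HSC and 0.187 among WT-MPP. All these counts share the depth of the cell: cells with Ccne2 also had more genes detected, 4692 against 4299 in CD11b+CD48+SK cells and 5586 against 5017 in FL HSC.

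**Figure D5:**
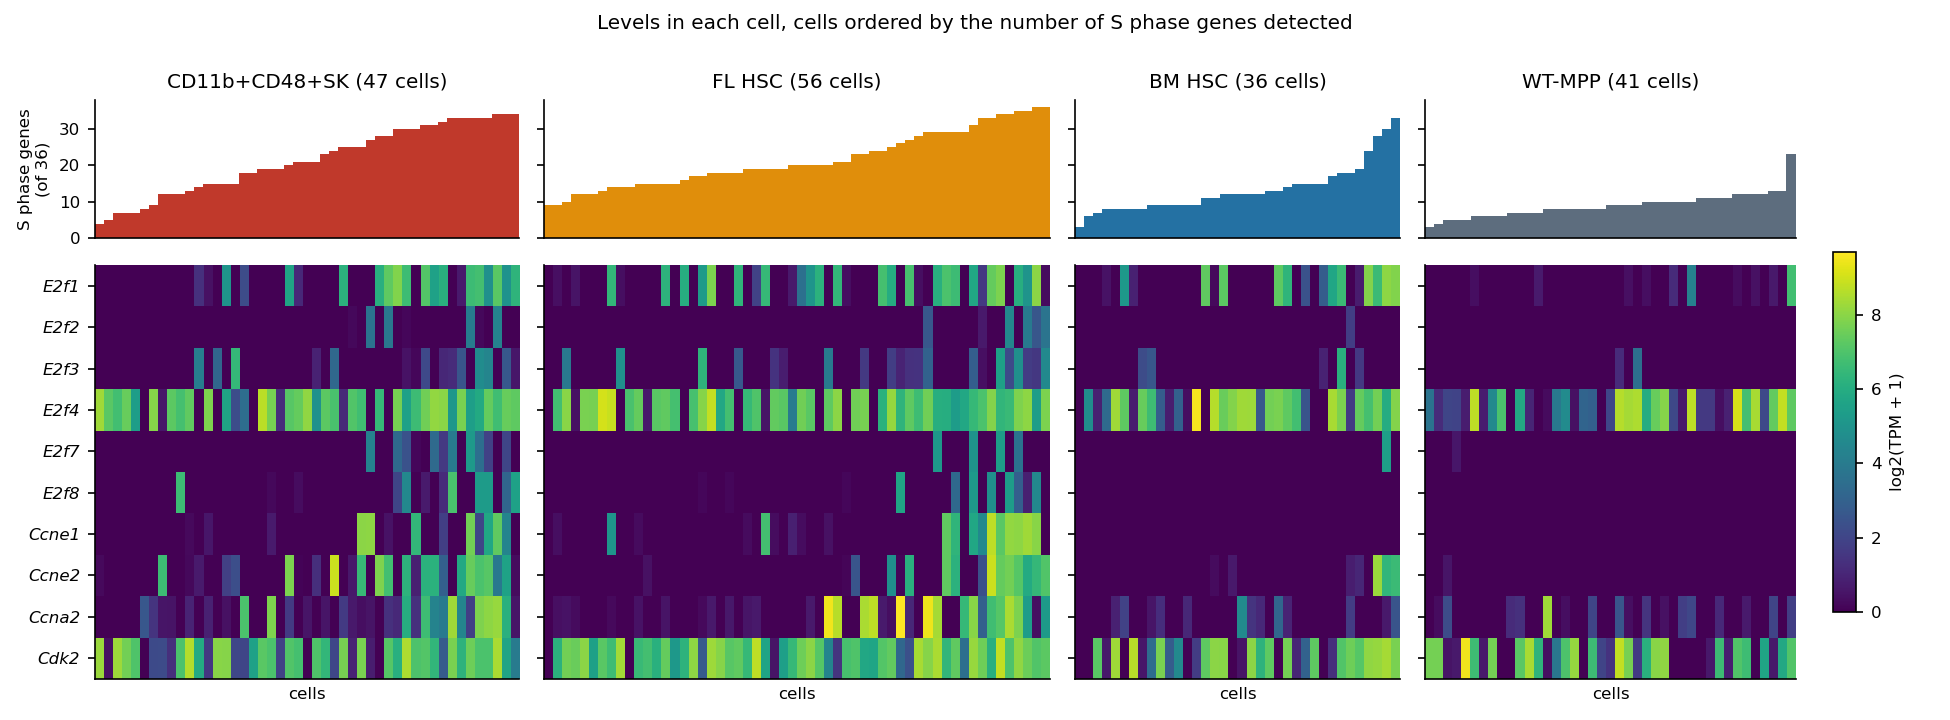
Each column is a cell, ordered within its population by the number of S-phase genes present (bars, of 36), with the level of the 10 genes below it as log2(TPM + 1) in colour. Cyclin E and E2f7 or E2f8 gather at the right end of CD11b+CD48+SK and of FL HSC cells, 3 BM HSC with Ccne2 at 10 TPM or more stand at the right end of theirs, and E2f4 and Cdk2, in 145 and 146 of 180 cells, are spread over the whole order.

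The cyclins split the cells further when counted at 10 TPM or more, classes that were set after the values had been seen. In FL HSC 8 cells had cyclin E without Ccna2, 7 had both, 8 had Ccna2 without cyclin E, and 33 had neither. The median number of 26 G2 and mitosis genes was 5.5 (1 to 14) with cyclin E alone, 18 (11 to 24) with both and 24.5 (24 to 25) with Ccna2 alone, while S-phase genes went 28, 34 and 25. All 8 FL HSC with cyclin E alone had E2f1, as did 5 of 7 with both and 2 of 8 with Ccna2 alone. In CD11b+CD48+SK cells E2f1 was instead most frequent with both, in 7 of 8, against 4 of 9 with cyclin E alone and 2 of 4 with Ccna2 alone. In FL HSC E2f7 or E2f8 was present in 2 of 8, 5 of 7 and 2 of 8 of these cells and in none of the 33 with neither, and in CD11b+CD48+SK cells in 2 of 9, 5 of 8, 2 of 4 and 3 of 26. There the classes held 9, 8, 4 and 26 cells, with G2 and mitosis medians of 6, 15.5, 20.5 and 2 and S-phase medians of 27, 33, 25.5 and 15. Both populations thus had cells of each kind in the same order of G2 and mitosis genes. In BM HSC the 3 cells with cyclin E had 28 to 33 S-phase genes and 2 to 8 G2 and mitosis genes. None had Ccna2 at 10 TPM or more with it, and at a TPM of 1 there was 1 BM HSC with both. The 1 BM HSC with Ccna2 alone had 1 G2 and mitosis gene and 12 S-phase genes. The WT-MPP cell with 318 TPM of Ccna2 had 14 G2 and mitosis genes, the most of its population, and 8 S-phase genes.

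Pairs of genes were met together as follows. Cyclin E of either gene, at a TPM of 1 or more, was present in 21 of 47 CD11b+CD48+SK cells (44.7%, 30.2 to 59.9%), 16 of 56 FL HSC (28.6%, 17.3 to 42.2%), only 4 of 36 BM HSC and no WT-MPP cell. An activator, E2f1, E2f2 or E2f3, was present in 17 of these 21, 15 of 16 and 4 of 4 cells. Of all cells of these 3 populations it was present in 25 of 47, 34 of 56 and 17 of 36, and all these counts share the depth of the cell. Of cells with E2f7 or E2f8 an activator was present in 11 of 12 in CD11b+CD48+SK, 8 of 9 in FL HSC and 1 of 1 in BM HSC. Ccne1 and Ccne2 were together in 7 CD11b+CD48+SK cells, 77.8% of those with Ccne1 and 36.8% of those with Ccne2, and in 9 FL HSC, 75% and 69.2%. E2f7 and E2f8 were together in 7 CD11b+CD48+SK cells, with 3 having E2f7 alone and 2 E2f8 alone. In FL HSC 2 cells had both, 2 E2f7 alone and 5 E2f8 alone, of 56 cells. The rho of this pair was 0.479 in CD11b+CD48+SK cells and 0.210 in FL HSC.

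As rank correlations over cells these pairs were weak to moderate. Over the 9 filtered genes the median rho of 36 pairs was 0.182 in CD11b+CD48+SK cells and 0.205 in FL HSC, and the highest were 0.513 for E2f1 with Ccne2 in the former and 0.509 for E2f8 with Ccne2 in the latter. In BM HSC and WT-MPP, where 21 pairs had a value, the medians were 0.123 and -0.036. The cells share their depth, and in cells with 4000 to 5500 genes the FL HSC median was 0.076 and that of CD11b+CD48+SK cells 0.216. Among FL HSC pairs Ccne1 with Ccne2 had a rho of 0.486.

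Genes most like each member were taken over all 180 cells, for the 5 members present in at least 20% of them, by Spearman's rho. E2f1 was nearest to Mcm5 (0.499), Ung (0.472), Lrr1 (0.471), Tyms (0.466) and Mcm4 (0.462), of which all but Lrr1 are in the S-phase list. For Ccne2 they included Rmi2 (0.589), Tk1 (0.581), Ung (0.575) and Rrm2 (0.556), genes of nucleotide supply and repair. For Ccna2 they were Birc5 (0.580), Esco2 (0.540), Melk (0.536), Troap (0.535) and Nuf2 (0.529), genes of cohesion and mitosis. E2f4, led by Ep400 (0.310), and Cdk2, led by Haus8 (0.365), had no neighbour above that. For Mcm5 with E2f1 the rho within populations was 0.637 among CD11b+CD48+SK cells, 0.331 among FL HSC, 0.534 among BM HSC and 0.321 among WT-MPP, and for Birc5 with Ccna2 it was 0.576, 0.750, -0.006 and 0.555.

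The E2F targets of S phase were counted in the same way as the members, and the shares of all filtered genes given above are repeated beside the counts. Of 36 genes, 28 were higher by 1 or more and none lower in CD11b+CD48+SK cells when set against WT-MPP (all genes 19.01% and 5.01%), with a median of 2.55 against 0.21 over all filtered genes. The largest difference was that of Cdt1 (3.75), which helps to load the replicative helicase. Mcm7 (3.74), a subunit of that helicase, and Gmnn (3.70), which holds Cdt1 back, followed. The smallest differences were those of Pole (-0.68), Msh6 (-0.18) and Orc1 (0.46). Against BM HSC 24 were higher and 1, Pole, lower (13.38% and 11.79%), with a median of 1.44. Against FL HSC none was higher and 6 lower, with a median of -0.14, a count no larger than the 20.94% of all genes that were lower there. FL HSC had 30 of 36 higher than WT-MPP (33.89%), and BM HSC 12 of 36 (14.49%). Of 26 G2 and mitosis genes 12 were higher in the transplanted cells than in WT-MPP (19.01%, median 0.88). Against FL HSC 8 of the 26 were lower (20.94%, median -0.78), led by Ccnb1 (-2.07), Ube2c (-1.96) and Cdc20 (-1.82).

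Partners and brakes of the E2F proteins, lists too short to weigh against those shares, are given by gene. The shares are repeated only beside the longest of these lists. Of E2f5, E2f6, Tfdp1 and Tfdp2, only Tfdp1, the DP partner, passed 1 in CD11b+CD48+SK cells against WT-MPP (2.59), with 42 of 47 cells against 24 of 41. E2f5 and E2f6, repressors not among the 10, were lower than in FL HSC (-3.003 and -2.68). E2f5 was present in 4 of 47 CD11b+CD48+SK cells and 31 of 56 FL HSC, with means of 11.7 and 67.6 TPM. Of the 3 pocket protein genes Rbl1 (p107), itself an E2F target, was higher than in WT-MPP by 1.80 and Rbl2 (p130) was lower than in BM HSC (-1.14), while Rb1 was sparse, present in 9 of 47, 6 of 56, 4 of 36 and 2 of 41 cells. Of 7 genes of the MuvB core with B-Myb and FoxM1, 4 were higher than in WT-MPP (all genes 19.01%) and none lower (5.01%). The 4 were Lin52 (1.999), Mybl2 (1.80), Lin37 (1.36) and Rbbp4 (1.22). None of the 7 differed by 1 from FL HSC, where 4.02% of all genes were higher and 20.94% lower.

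Among 14 regulators of the cyclin and Cdk2 complexes, 3 were higher and 2 lower in the transplanted cells than in WT-MPP, which for the higher genes is near the 19.01% of all genes (5.01% lower). Cks1b (3.67) and Cks2 (3.54), small subunits that bind Cdk, and Ccnh (1.84), a subunit of the Cdk-activating kinase, were higher. The inhibitor genes Cdkn1b (p27) and Cdkn1c (p57) were lower (-1.76 and -1.62). Cdkn1b was present in 17 of 47 CD11b+CD48+SK cells, 6 of 56 FL HSC, 21 of 36 BM HSC and 30 of 41 WT-MPP, and Cdkn1c in 1 of 47, 48 of 56, 21 of 36 and 15 of 41. The 2 inhibitors therefore took different orders over the populations: FL HSC had the fewest cells with Cdkn1b and the most with Cdkn1c, and the difference of Cdkn1c between the transplanted cells and FL HSC was -6.33.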

How the data were processed

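Single cells were sorted and their cDNA amplified with the Discover-sc WTA Kit V2 and made into libraries with the TruePrep DNA Library Prep Kit V2. The authors aligned the reads with HISAT2 2.1.0 and estimated gene levels with StringTie 1.3.4, and the deposited values are TPM per gene and cell. The submitters' processing notes also name bcl2fastq, SAMtools 0.1.19 and the build mm10. The annotation, and whether strand was used, are not given in the sources used here.

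Of 181 columns of cells, 1 has no sample and was not used. Cells were grouped by their titles. No cells were left out, every cell having at least 2479 genes detected, no 2 cells had identical values, and doublets were not sought, since each library held 1 sorted cell. TPM keeps no read counts, so depth is unknown.

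From the TPM values log2(TPM + 1) was averaged over cells, and a difference of 1 or more was counted, as a rule of size without a test. Shares of cells have exact 95% Clopper-Pearson intervals, and 0 cells the limit of 3 cells. That limit is lower than the exact upper bound, which is 9.74% at 0 of 36 BM HSC and 8.60% at 0 of 41 WT-MPP. Spearman's rho over cells is given without p. The genes named were the 10 members, the 5 genes of largest rho with each member present in at least 20% of cells, genes of the lists of E2F partners, pocket proteins, MuvB and Cdk2 regulators, and the 3 largest and smallest differences of the S-phase and G2 and mitosis lists. Of these, 1 gene is not reported here. Exosc9, Ints8, Hoxb5 and the cyclin classes were added after the values had been seen. The members and lists were chosen with earlier results of these data known.

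The computation of differences was run on shuffled values with a known change added. That change is returned by construction, so this checks the arithmetic only. Python 3.11.15, numpy 2.4.6, pandas 2.3.3, scipy 1.17.1 and matplotlib 3.10.9 were used. Alternatives were pseudocounts of 0.1 and 10, the log of the mean, scaling by median ratios, cells with 4000 to 5500 genes, detection at a TPM above 0 or of 10, no filter, and Pearson's correlation. Promoters are RefSeq's for GRCm38.p6, and gene positions and exon overlaps are those of GENCODE on GRCm38, the assembly that mm10 names.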

Additional observations from a re-analysis of the deposited data

How the results depend on the processing

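No paired analysis was possible because the results come from no test and the numbers in the titles only name cells. The number of the 10 genes past a difference of 1 depended on how low values were weighted. With a pseudocount of 10 it was 1 between CD11b+CD48+SK and WT-MPP cells (6 with a pseudocount of 1), 0 against BM HSC (3) and 0 against FL HSC (1), 1 for FL HSC against BM HSC (3) and 1 for BM HSC against WT-MPP (2). With a pseudocount of 0.1 it was 6 for CD11b+CD48+SK cells against BM HSC, 2 against FL HSC, and 6 for FL HSC against BM HSC. With the log of the mean TPM it was 2 for CD11b+CD48+SK cells against FL HSC and 5 for BM HSC against WT-MPP. After scaling by median ratios it was 0 for CD11b+CD48+SK cells against FL HSC (4.54% of filtered genes higher, 16.3% lower) and 1 for BM HSC against WT-MPP (11.3% and 5.55%). In cells with 4000 to 5500 genes it was 2 for FL HSC against WT-MPP, 1 for FL HSC against BM HSC and 1 for BM HSC against WT-MPP, and for CD11b+CD48+SK cells against FL HSC it stayed 1, but that gene was Ccne2, higher by 1.72. The share of all filtered genes past 1 was computed only for all cells with a pseudocount of 1 and after the scaling. Under the other settings it is unknown whether the group moved more than all genes did. The cause of these changes was not tested. In cells with 4000 to 5500 genes E2f4 of CD11b+CD48+SK cells against BM HSC went from 0.43 to -0.76. Without the filter on low values all 6 counts were the same. At a TPM of 10 or more the median number of genes present per WT-MPP cell was 1 in place of 2. Of 300 alternative values of single differences 228 stayed on their side of 1 and none past 1 changed sign, and of 120 alternative shares 97 stayed inside the interval of the share at a TPM of 1. With 1 sample per population the spread between animals is unknown. At 36 to 56 cells a gene absent from a population may still be present in up to 8.33% of its cells by the limit of 3 cells. By the exact interval this is up to 9.74%.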
